A study of Mus musculus with 34 samples.

Results

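Mice lacking Gprc5a were brushed in the trachea 2 or 4 months after the end of a course of the tobacco nitrosamine NNK, and the airway RNA of both times was compared across all genes. The comparison used 11 of the 34 libraries of the series, 5 taken 2 months (t2) and 6 taken 4 months (t4) after exposure, chosen by the time point in their labels. Of 24223 genes in the count table, 14847 reached a level of 1 CPM (counts scaled by TMM to a common library total) in at least 5 of the 28 knockout libraries and were tested. By their labels, all mice of both groups were Gprc5a-/- and had received NNK at 50 mg/kg body weight, 3 times a week for 8 weeks. The labels give an age of 6 to 8 weeks for every mouse, without an age at brushing. Each library came from a different mouse per the series design, so the t4 mice are not the t2 mice at a later time. No unexposed mice of matching ages and no wild-type mice at these times enter the comparison, so time since exposure and age cannot be told apart. Libraries are named by group and by the number in their label, and tests are given with all libraries and without t2 339, a library with few detected genes whose values were known when it was singled out.

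NNK is activated by cytochrome P450 enzymes of the airway to products that alkylate DNA. Gprc5a is an orphan receptor of the lung epithelium, and its loss in mice favours lung adenocarcinoma. The mouse trachea is lined by secretory club cells, which hold much of the P450 activity, by multiciliated cells, and by basal cells, the Trp63-positive stem cells from which both can be renewed after injury. The series asks how the airway field changes between exposure and tumour development, and months 2 and 4 are the interval before the time at which tumours are studied.

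Total estimated counts per library lay between 21232368 and 29514266 at t2 and between 15625276 and 29979899 at t4. Apart from t4 335, the highest, every t4 library was below every t2 library, at 20718638 or less. Detected genes numbered 14283 in t2 339, from 17234 to 18088 in the remaining t2 libraries and from 17205 to 18868 at t4. On the first principal component of log2(CPM + 1), holding 39.9% of the variance of these 11 libraries, t2 339 lay at 112 and the other 10 between -13.9 and -8.1. The second, holding 17.1%, spread the libraries within both groups. It ran from -21.2 (t2 347) to 36.2 (t2 358) at t2 and from -31.4 (t4 377) to 43.9 (t4 336) at t4. Haemoglobin transcripts took 25.5% of the counts of t4 371, at most 3.06% of the other t4 libraries and at most 1.76% of the t2 libraries. By Xist and Y-linked counts, 2 mice at t2 and 3 at t4 were read as male, the other 3 in each group as female, and t2 334, read as male, held 492 Xist counts against 13 to 62 in the other 4 males. Among the females, t2 347 held 21 Y-linked counts against 0 to 3 in the others.

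The labelled tissue was checked against its markers. The epithelial genes Epcam, Cdh1, Krt8 and Krt18 were present in all 11 libraries, with Epcam at 278, 299.9, 249, 349.9 and 265 CPM in t2 334, 339, 347, 358 and 360 and at 259 to 585 (median 317) CPM over the 6 t4 libraries. Values of the t2 libraries are given in this order throughout, and those of t4 as the lowest, the highest and the median. Scgb1a1, the main club-cell secretory protein, stood at 23122, 15328, 10085, 19695 and 26677 CPM at t2 and 10901 to 31615 (median 18810.0) at t4, with a log2 fold change (t4 over t2, here and below) of 0.09 ± 0.35 (SE), and 0.02 ± 0.38 without t2 339. For Scgb3a1, a secretory protein of the upper airway, the t2 values were 2044, 3562, 3920.5, 2593 and 5845 and the t4 range was 1788 to 6692 (median 3786). Foxj1, the master regulator of motile cilia, lay at 1029.8, 844, 952, 713 and 1289 at t2 and 896 to 1441 (median 1329.6) at t4, and the basal keratin Krt5 at 402, 464, 230.0, 510.5 and 229.6 at t2 and 162 to 569.6 (median 191) at t4. All of these markers were expressed at both times and their ranges overlapped, and the fitted sign for Scgb1a1 and Scgb3a1 turned when single libraries were left out. Gprc5a (chromosome 6, 135065662 to 135084708, mm10, as for all gene positions here) held 11 to 36 counts in 4 of the t2 libraries and 6 to 45 at t4, but 238 counts (8.06 CPM of its total) in the library labelled t2 339. The source of these counts was not tested and no wild-type library was set beside them, so the knockout label of t2 339 stays uncertain. Which part of the gene the knockout lacks is not given in the sources used here.

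By edgeR few genes separated month 4 from month 2 in the test over all genes, and the number depended on the tool. With 5 against 6 libraries, a gene that was not called is not shown to be unchanged. With all 11 libraries, edgeR's quasi-likelihood test called 0 of 14847 genes at an adjusted p under 0.05 (0% called), with a smallest adjusted p of 0.0844 shared by 25 genes and 2034 genes (13.7%) at an unadjusted p under 0.05. Of those, 722 were higher at t4 (4.86%) and 1312 lower (8.84%). Without t2 339, 16 of 14827 genes were called (0.108%): 6 rose (0.0405%) and 10 fell (0.0674%), and 1948 had an unadjusted p under 0.05 (13.1%), 762 higher (5.14%) and 1186 lower (8.00%). DESeq2 called 155 genes with all libraries (1.05%), 57 higher and 98 lower, and limma-voom with sample quality weights called 245 (1.65%), 103 higher and 142 lower, while limma on log2(CPM + 1) called 0. Without t2 339 these 3 tools called 157 (1.06%), 223 (1.50%) and 7. At an adjusted p under 0.10, edgeR listed 32 genes with all libraries (0.216%), 6 higher and 26 lower, and 91 without t2 339 (0.614%), with 22 in both. The genes called by both DESeq2 and limma-voom numbered 88 (0.594%), 37 higher and 51 lower, all in the same direction in both. All tools used the same counts and the same contrast, so their agreement, here and below, is not independent support. They were 56.8% of the DESeq2 calls and 35.9% of the limma-voom calls.

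The 16 calls rest on few libraries. With t2 339 left out, leaving out t2 334, t2 358, t4 348, t4 371 or t4 377 as well brought the count to 0, leaving out t4 335 to 1, t4 336 to 2, t2 347 to 5, t4 340 to 7 and t2 360 to 30. With t2 339 kept, leaving out t2 360 gave 31 calls, t2 347, t4 336 or t4 340 gave 2 each, and the other 6 libraries gave 0. With t2 339 kept, the lowest adjusted p that leaving out a single library gave was 0.0179 for Trp63 (without t4 340), 0.017 for Tubb5 (without t4 336) and 0.0206 for Glul (without t2 347). The median log2 fold change over all genes was 0.00179 with all libraries and 0.00506 without t2 339.

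**Figure D1:**
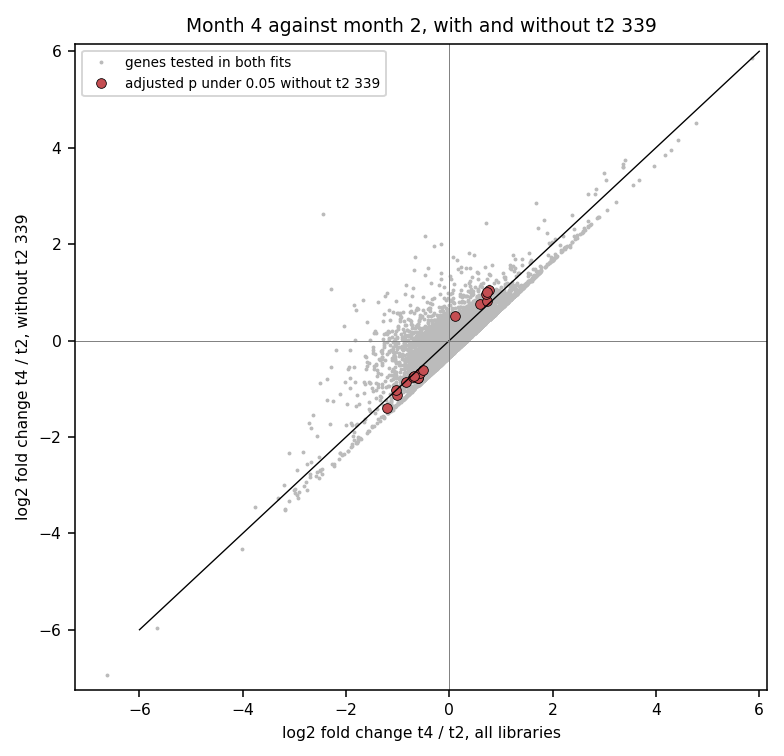
Log2 fold change of t4 over t2 for each gene tested in both fits, with all libraries (x axis) and without t2 339 (y axis), with the 16 genes called without t2 339 in red and the line of equality in black. All 16 have the same sign on both axes, whose fits share all libraries but t2 339. Brd9 is the red point farthest from the line, at 0.10 and 0.51.

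Of the 16 genes, 12 were also called by DESeq2 with all libraries and 16 by limma-voom. Brd9, Itgb7, Mad2l1bp and Rbm45 were the 4 that DESeq2 did not call. With all libraries their edgeR adjusted p ran from 0.0844 to 0.838, and 8 of them lay under 0.10. Their t2 and t4 libraries did not overlap for 13 of 16 without t2 339 and for 5 of 16 with it. Over all genes, every t4 library lay above every t2 library for 110 genes (0.741%) and below for 149 (1.00%), and without t2 339 for 226 (1.52%) and 365 (2.46%). The 16 were chosen by this contrast, so nothing is read from those shares. Of the 16, Srp54b, Akap8l, Rbm45 and Prdx6b are the 4 with the smallest p, and 11 others are named because the calls are few, a choice made with their values seen.

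The 5 rises reported were in genes of nuclear RNA, a chromatin reader and an integrin. Akap8l (chromosome 17, 32321424 to 32350577), a nuclear matrix protein that binds RNA helicases, stood at 27.4, 55.5, 26.5, 20.8 and 31.1 CPM at t2 and 45.9 to 65.6 (median 53.6) at t4. The 4 other t2 libraries all lay below the t4 libraries, and t2 339 lay inside the t4 range. For Akap8l the log2 fold change was 1.05 ± 0.18 without t2 339 (adjusted p 0.041) and 0.76 ± 0.21 with it (0.124).

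Arglu1, a nuclear protein that takes part in splicing and nuclear receptor transcription, was at 41, 67.1, 38.5, 36.7 and 51.9 CPM at t2 and 55.5 to 106 (median 65.6) at t4, where t4 371, the haemoglobin-rich library, was the highest. For Arglu1 the log2 fold change was 0.76 ± 0.16 without t2 339 (adjusted p 0.047), against 0.60 ± 0.16 with it (0.124).

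Malat1 (chromosome 19, 5795690 to 5802671), the abundant long noncoding RNA of nuclear speckles, stood at 819, 1997, 951, 1068 and 1113 CPM at t2 and at 1588 to 2322 (median 1982) at t4. The 4 other t2 libraries were below every t4 library, while t2 339 was at the t4 level. Its log2 fold change was 1.00 ± 0.20 without t2 339 (adjusted p 0.0447), and with it the value was 0.73 ± 0.21 (0.136). Brd9, a bromodomain subunit of a BAF chromatin remodelling complex, was at 22.7, 59.3, 21.3, 21.5 and 24.5 CPM at t2 and 28.1 to 37.1 (median 32.6) at t4. Here t2 339 was above every other library of both groups, and the value moved from 0.51 ± 0.10 without it (adjusted p 0.0447) to 0.10 ± 0.18 with it (0.838). Itgb7, the beta chain of the gut-homing integrin of lymphocytes, was at 27.7, 44.5, 25.3, 15.9 and 20.1 CPM at t2 and 30.9 to 48.6 (median 45.3) at t4, again with t2 339 at the t4 level. The log2 fold change was 0.97 ± 0.19 without t2 339 (adjusted p 0.0447), against 0.70 ± 0.21 with it (0.145).

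**Figure D2:**
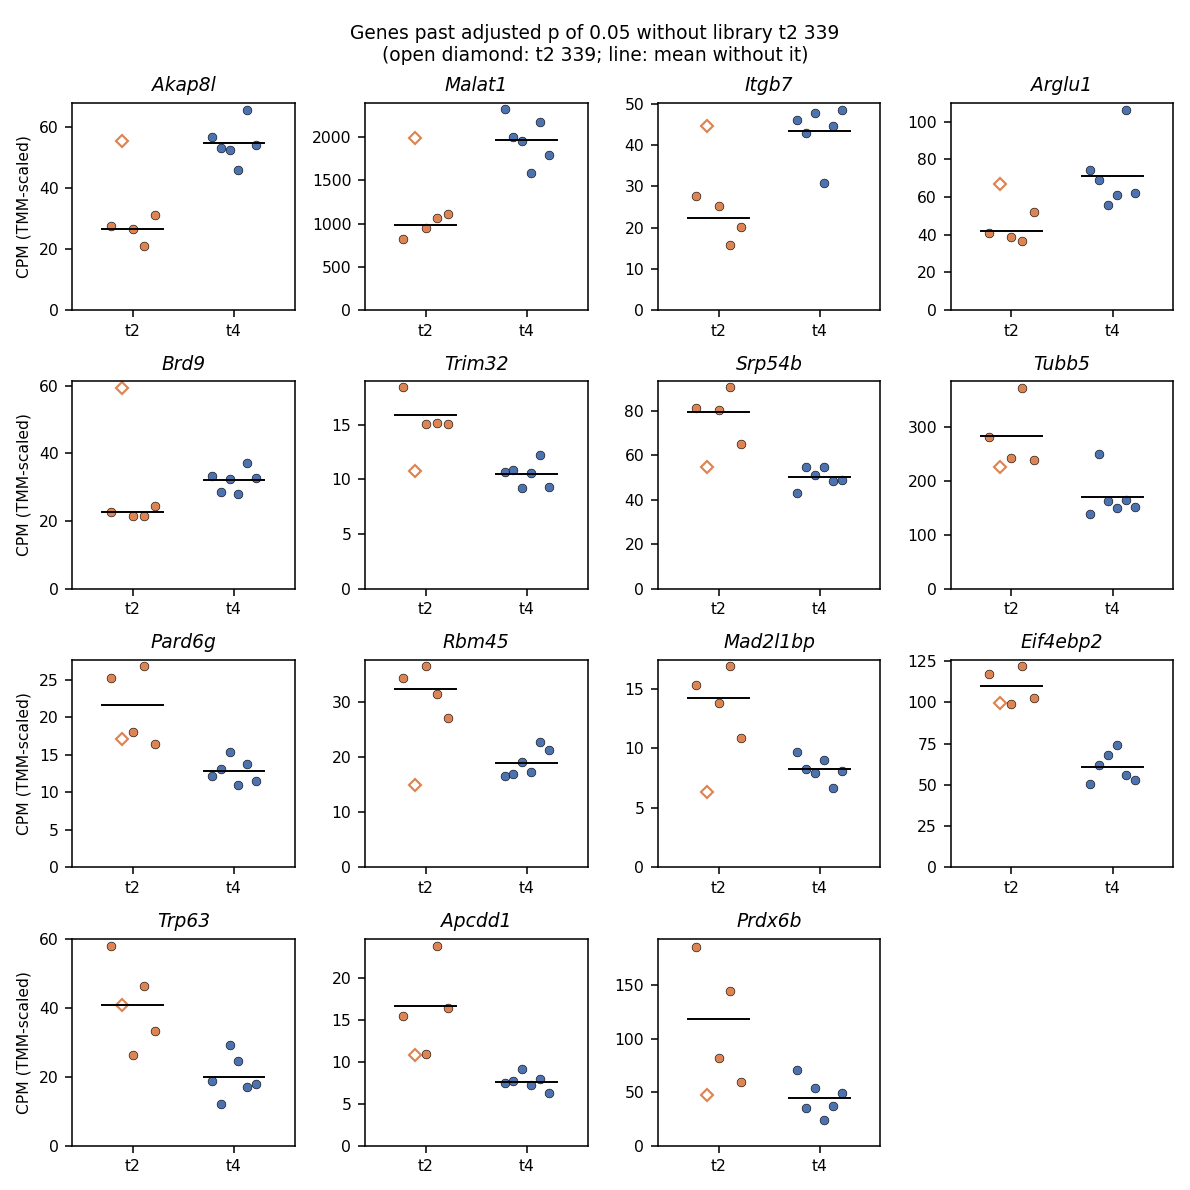
CPM (y axis, from 0) of 15 of the 16 genes called without t2 339 in each t2 and t4 library, 1 panel a gene ordered from the largest rise to the largest fall, with means without t2 339 as lines. The open diamond, t2 339, sits among or above the t4 libraries for the 5 rises shown, and among the other t2 libraries for Trp63 and Eif4ebp2.

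Of the 10 genes that fell without t2 339, Trp63 and Eif4ebp2 had fitted values that hardly moved when t2 339 was kept. Trp63 (chromosome 16, 25683765 to 25892088), the transcription factor that maintains basal cells, stood at 57.8, 40.7, 26.3, 46.4 and 33.1 CPM at t2 and 12.2 to 29.3 (median 18.4) at t4. The highest t4 library, t4 340, was above the lowest t2 library, t2 347, and the groups were otherwise apart. The log2 fold change was -1.03 ± 0.21 without t2 339 (adjusted p 0.0458) and -1.03 ± 0.20 with it (0.0844). Eif4ebp2 (chromosome 10, 61432497 to 61452669), a repressor of cap-dependent translation controlled by mTOR, was at 117, 99.6, 98.9, 122 and 103 CPM at t2 and 50.2 to 74.3 (median 59.1) at t4. No t4 library reached the lowest t2 library. Its log2 fold change was -0.86 ± 0.17 without t2 339 (adjusted p 0.0447) and -0.83 ± 0.16 with it (0.0844).

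Among the other genes that fell, Apcdd1, an inhibitor of Wnt signalling at the cell surface, stood at 15.4, 10.8, 10.9, 23.9 and 16.4 CPM at t2 and 6.32 to 9.12 (median 7.63) at t4, without overlap. For Apcdd1 the log2 fold change was -1.13 ± 0.22 without t2 339 (adjusted p 0.0447) and -1.02 ± 0.22 with it (0.0844). Pard6g, a polarity adaptor that works with atypical protein kinase C, was at 25.3, 17, 18, 26.9 and 16.4 CPM at t2 and 10.9 to 15.4 (median 12.6) at t4, also without overlap (-0.76 ± 0.16, 0.047 and -0.70 ± 0.15, 0.0844, in the same order). Tubb5, a beta-tubulin used by dividing cells, was at 283, 226, 242, 374 and 238 CPM at t2 and 139.6 to 251 (median 158) at t4. Of the t4 libraries t4 336 alone reached into the t2 range for Tubb5, and the value was -0.74 ± 0.15 without t2 339 (adjusted p 0.047) and -0.68 ± 0.15 with it (0.0844).

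Rbm45, an RNA-binding protein, Mad2l1bp, which silences the spindle checkpoint, and Trim32, a ubiquitin ligase, fell when t2 339 was left out. Rbm45 was at 34.3, 14.9, 36.5, 31.4 and 27 CPM at t2 and 16.6 to 22.8 (median 18.2) at t4, and t2 339 was below every t4 library (-0.77 ± 0.14, adjusted p 0.0414 without t2 339, and -0.60 ± 0.17, 0.134 with it). Mad2l1bp was at 15.3, 6.34, 13.8, 16.9 and 10.8 CPM at t2 and 6.69 to 9.72 (median 8.14) at t4, and t2 339 was again the lowest of all 11 (-0.78 ± 0.15, 0.0447 and -0.61 ± 0.19, 0.16). Trim32 was at 18.5, 10.8, 15, 15.1 and 15.1 CPM at t2 and 9.17 to 12.2 (median 10.6) at t4 (-0.61 ± 0.12, 0.0458 and -0.51 ± 0.14, 0.124). The 4 other t2 libraries were above every t4 library for all 3 genes. Trim32 lies inside Astn2, and whether the authors' counting used strand is not given in the sources used here, so its reads are uncertain.

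Both remaining falls are uncertain because near-identical genes could share reads. Srp54b, a copy of the signal recognition particle subunit gene, was at 81.5, 54.8, 80.5, 90.9 and 65.3 CPM at t2 and 42.9 to 54.8 (median 50.0) at t4 (54.8 in t4 336). In t2 339 Srp54b was at the level of the highest t4 library, and the 4 other t2 libraries were above all t4 libraries. Its log2 fold change was -0.67 ± 0.12 without t2 339 (adjusted p 0.041) and -0.57 ± 0.12 with it (0.0844). Its copies Srp54a and Srp54c gave -0.03 ± 0.20 (adjusted p 0.962) and 0.24 ± 0.30 (0.753) with all libraries, and -0.22 ± 0.16 (0.592) and 0.79 ± 0.25 (0.179) without t2 339. Prdx6b, a copy of the peroxidase gene Prdx6, was at 186, 46.9, 82.3, 145 and 59 CPM at t2 and 24.1 to 70.5 (median 42.9) at t4 (-1.39 ± 0.26, 0.0447 and -1.21 ± 0.27, 0.0844). For Prdx6 itself the value was -0.29 ± 0.17 (0.453), against -0.30 ± 0.18 (0.502) without t2 339.

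Of the 12 genes with the smallest p over all libraries, 6 in each direction, 9 were not among the 16. On the same counts, all 12 were called by DESeq2 and by limma-voom. From here on, pairs of values in brackets are a log2 fold change with its SE and the edgeR adjusted p, first with all libraries. Camk2n1, an inhibitor of calmodulin kinase II, was at 69.9, 60.0, 55.8, 67.7 and 77.5 CPM at t2 and 87.9 to 106 (median 96.4) at t4. No t2 library reached the lowest t4 library, and its log2 fold change was 0.53 ± 0.11 (edgeR adjusted p 0.0844), against 0.50 ± 0.12 (0.0804) without t2 339. Hpse, the enzyme that cuts heparan sulphate, was at 20.5, 13.1, 18.2, 19.2 and 23.1 CPM at t2 and 26.8 to 36.4 (median 28.4) at t4, also apart (0.69 ± 0.15, 0.0844, against 0.59 ± 0.15, 0.0972 without t2 339). Arid4a, a chromatin protein that binds the retinoblastoma protein, was at 21.2, 17.6, 20.6, 20.1 and 24.5 CPM at t2 and 22.5 to 36.7 (median 31.1) at t4, with 1 t4 library inside the t2 range (0.57 ± 0.13, 0.0844, against 0.52 ± 0.13, 0.0965 without t2 339).

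Tnni3, listed as cardiac troponin I, was at 14.6, 10.7, 22.8, 13.8 and 21.4 CPM at t2 and 24.7 to 51 (median 42.9) at t4, apart in all libraries (1.27 ± 0.28, 0.0844, against 1.15 ± 0.29, 0.09 without t2 339). Other heart muscle genes were low: Myh6 lay between 0.0371 and 10.6 CPM and Actc1 between 0.0647 and 5.84. In GENCODE M21 Tnni3 overlaps Dnaaf3, a gene for assembly of ciliary dynein arms that was at 127, 122, 189, 102 and 160.1 CPM at t2 and 149 to 226 (median 195) at t4 (0.44 ± 0.24, 0.422, against 0.39 ± 0.26, 0.533 without t2 339), so reads of the pair are uncertain. Tbrg3 lies inside Tcf20 and was close to the filter, at 0.152, 0.0647, 0.138, 0.52 and 0.31 CPM at t2 and 0.768 to 2.49 (median 1.14) at t4 (2.42 ± 0.53, 0.0844, against 2.17 ± 0.51, 0.0804 without t2 339).

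In the lower direction, Mapre2, a protein of microtubule ends, was at 50.2, 48.9, 50.4, 51 and 48.5 CPM at t2 and at 32.9 to 42 (median 37.6) at t4. The groups were apart and the log2 fold change was -0.41 ± 0.09 (edgeR adjusted p 0.0844), against -0.42 ± 0.09 (0.0512) without t2 339. Ercc3, a helicase of transcription factor TFIIH used in nucleotide excision repair, was at 44.2, 53, 48.2, 43.7 and 42.7 CPM at t2 and 26.5 to 35.2 (median 32.7) at t4, apart as well (-0.52 ± 0.11, 0.0844, against -0.47 ± 0.11, 0.0797 without t2 339). Glul, glutamine synthetase, was at 425, 367, 226, 430.2 and 388 CPM at t2 and 176 to 267 (median 206) at t4. Only t2 347 among the t2 libraries lay inside the t4 range of Glul (-0.78 ± 0.16, 0.0844, against -0.78 ± 0.17, 0.0693 without t2 339).

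Shmt1, the cytosolic serine hydroxymethyltransferase that feeds one-carbon units to folate, was at 27.4, 38.3, 24.1, 33.8 and 24.4 CPM at t2 and 11.3 to 19.6 (median 17.3) at t4. No t4 library reached the t2 range, and the log2 fold change was -0.87 ± 0.18 (edgeR adjusted p 0.0844), against -0.76 ± 0.18 (0.0804) without t2 339. Further genes of this metabolism are given here after their values were seen. Ahcy, which hydrolyses S-adenosylhomocysteine, was at 27, 35.7, 23.6, 40.6 and 25.4 CPM at t2 and 15.1 to 27.1 (median 17.4) at t4 (-0.72 ± 0.16, 0.0844, against -0.66 ± 0.16, 0.0895 without t2 339). Mthfd1, a cytosolic folate enzyme, was at 36, 44.7, 26, 37.8 and 30.7 CPM at t2 and 19.5 to 26.1 (median 23.9) at t4 (-0.56 ± 0.13, 0.0957, against -0.46 ± 0.13, 0.131 without t2 339). Both DESeq2 and limma-voom called Shmt1, Ahcy and Mthfd1 as lower at t4. The serine synthesis enzyme Psat1 was at 41.3, 61.7, 33.4, 71 and 36.1 CPM at t2 and 12.5 to 51.4 (median 19.6) at t4, overlapping (-0.92 ± 0.27, 0.138, against -0.82 ± 0.29, 0.211 without t2 339), and Phgdh and Mat2a had log2 fold changes of -0.30 ± 0.23 and -0.06 ± 0.20 (-0.34 ± 0.24 and -0.06 ± 0.21 without t2 339).

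Gene lists for cell types and pathways are described by how many members had an unadjusted p under 0.05 in the edgeR fit with all libraries, against 4.86% higher and 8.84% lower over all genes, and by the median log2 fold change, against 0.00179. In bulk RNA, fewer cells of a type and less RNA per cell cannot be told apart. No member of any list passed an adjusted p of 0.05 with all libraries. Counts and medians are also given without t2 339 (against 5.14% higher and 8.00% lower over all genes). As a check added after seeing the data, they are given without each library that moved them most. The number over all genes moved too, from 1562 of 14824 without t4 335 to 2308 of 14816 without t2 347. List counts with a library left out are not set against it, so their moves are not particular to the lists.

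**Figure D3:**
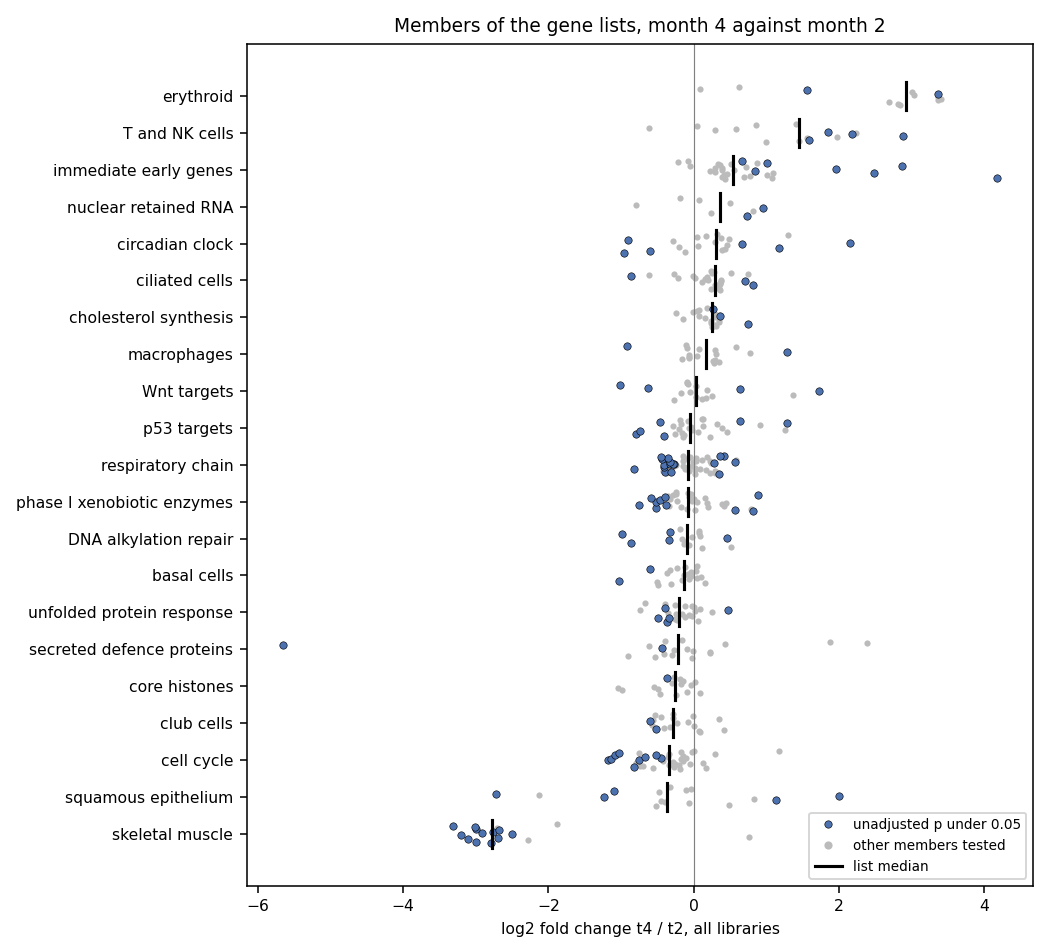
Log2 fold change of t4 over t2 with all libraries (x axis) for each tested member of 21 gene lists (rows, ordered by median), with members at an unadjusted p under 0.05 in blue and list medians as black bars. The medians run from -2.77 for skeletal muscle to 2.92 for erythroid genes (-1.55 without t2 360 and 0.64 without t4 371), and most lie within 0.5 of 0.

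Among lining cell types, club cell genes were lower in median and ciliated genes higher. With all libraries, the count of members in that direction was near the share over all genes for both lists. Of 18 club cell genes, 0 were higher and 2 lower at an unadjusted p under 0.05 (median -0.28). Without t2 339, 5 were lower (-0.34), and without t2 334 or t2 358, 1 was. Cyp2f2 (chromosome 7, 27119955 to 27133660), the club cell P450, was at 25065, 14280.0, 17182, 27144 and 17801 CPM at t2 and 11247 to 16291 (median 14739) at t4, with t2 339 alone of the t2 libraries inside the t4 range. Its log2 fold change was -0.52 ± 0.21 (adjusted p 0.267) with all libraries and -0.63 ± 0.22 (0.217) without t2 339. Gsto1, a glutathione transferase, was at 5721, 4172, 3641, 7082 and 4294 CPM at t2 and 2720.2 to 3847 (median 3335) at t4 (-0.60 ± 0.17, 0.128, against -0.66 ± 0.18, 0.118 without t2 339) and was called lower by both DESeq2 and limma-voom. Aldh1a7, an aldehyde dehydrogenase with a near copy in Aldh1a1, was at 183, 115, 127, 172 and 174 at t2 and 87.9 to 138 (median 130.0) at t4 (-0.33 ± 0.17, 0.4, against -0.42 ± 0.17, 0.297 without t2 339). The mucin Muc5b was at 2309, 1409, 2604, 3002 and 4316 CPM at t2 and 1648 to 3174 (median 2578) at t4, with wide overlap, and Cckar, a receptor gene, at 12, 22.3, 15, 5.23 and 19 at t2 and 2.73 to 18.6 (median 9.43) at t4.

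Of 30 ciliated cell genes, 2 were higher and 1 lower, with 25 of 30 positive and a median of 0.30. Without t2 339 the counts were 3 and 2 (0.32), and without t2 358 they were 1 and 2 (0.16). Leaving out t2 334 or t4 340 gave 1 and 1. Cfap43, a protein of the ciliary axoneme, was at 171, 279.6, 307, 150.5 and 253 CPM at t2 and 304 to 441 (median 377) at t4 (0.71 ± 0.24, 0.195, against 0.78 ± 0.26, 0.202 without t2 339), and Rsph1, a radial spoke protein, at 194, 388, 386, 133 and 222 at t2 and 293 to 736 (median 389.7) at t4 (0.82 ± 0.33, 0.26, against 1.00 ± 0.35, 0.219 without t2 339). In both genes t2 334 and t2 358, the t2 libraries read as male, were the lowest of the t2 libraries. Mcidas, which starts the multiciliated programme, was at 13.5, 21.4, 15.8, 11 and 21.3 CPM at t2 and 6.78 to 11.7 (median 9.11) at t4, with a log2 fold change of -0.87 ± 0.28 (0.171, against -0.76 ± 0.29, 0.244 without t2 339). Its sign was opposite to that of most genes of the list.

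Of 20 basal cell genes, 0 were higher and 2 lower (Trp63 and Cdh3), with a median of -0.13. Without t2 339, 3 were lower (-0.13), without t4 336, 6 were (-0.36), and without t2 334 or t4 377, 1 was. The median was -0.22 without t2 360, -0.19 without t4 340, -0.07 without t2 358 and -0.06 without t4 348. The cadherin Cdh3 was at 11.1, 6.34, 7.33, 9.2 and 7.74 CPM at t2 and 3.78 to 8.42 (median 5.15) at t4 (-0.60 ± 0.24, 0.268, against -0.69 ± 0.25, 0.229 without t2 339). The keratins Krt5 and Krt14, which mark the same cells, gave -0.49 ± 0.28 (0.454, against -0.39 ± 0.31, 0.611 without t2 339) and -0.31 ± 0.45 (0.791, against -0.15 ± 0.48, 0.923 without t2 339). In t4 336 Krt5 was at 569.6 CPM, the highest of the 11 libraries, while its Trp63, at 12.2, was the lowest. Of 16 squamous epithelium genes, 2 were higher and 3 lower (1 and 3 without t2 339). Tgm1, which crosslinks the cornified envelope, was at 16, 24.6, 8.46, 15.6 and 9.2 CPM at t2 and 3.83 to 9.26 (median 5.98) at t4 (-1.24 ± 0.34, 0.128, against -0.97 ± 0.34, 0.22 without t2 339), the envelope precursor Sprr3 at 1.79, 7.31, 0.138, 2.08 and 0.708 at t2 and 0 to 0.893 (median 0.362) at t4, and the suprabasal keratin Krt4 at 465, 644, 538, 648 and 434 at t2 and 216 to 627 (median 333) at t4 (-0.52 ± 0.29, 0.436, against -0.45 ± 0.31, 0.556 without t2 339). The epidermal keratin Krt1 was low, at 3.08, 0, 4.2, 2.67 and 3.72 at t2 and 4.15 to 6.96 (median 6.52) at t4. The list median moved from -0.36 to -0.07 without t2 339, in which Sprr3 was the highest. It was -0.05 without t2 358, -0.22 without t4 348, -0.24 without t4 371 and -0.73 without t4 336.

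Of 18 secreted defence proteins, 0 were higher and 2 lower (median -0.21), and 4 were lower without t2 339 (-0.26). Chil4, a chitinase-like protein secreted by airway epithelium, was at 1173, 14.4, 158, 168 and 41.3 CPM at t2 and 1.06 to 13.1 (median 3.48) at t4. Every t2 library was above every t4 library, although t2 339 and t4 336 were only 14.4 against 13.1, and t2 334 held most of the t2 signal. The log2 fold change was -5.66 ± 1.65 (edgeR adjusted p 0.143, DESeq2 0.00969, limma-voom 0.171). It was -5.97 ± 1.65 (edgeR adjusted p 0.136) without t2 339 and -3.95 (0.256) without t2 334. The beta-defensin Defb1 was at 9.23, 12.9, 9.66, 11.7 and 11 CPM at t2 and 5.46 to 9.24 (median 8.27) at t4 (-0.43 ± 0.17, 0.245, against -0.37 ± 0.17, 0.346 without t2 339), and Bpifb5, of the family of bactericidal lipid-binding proteins, at 3.61, 4.85, 11.9, 6.24 and 22.6 at t2 and 3.57 to 7.41 (median 4.87) at t4 (-0.90 ± 0.47, 0.4, against -1.07 ± 0.48, 0.333 without t2 339).

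Cell cycle genes were lower in median at t4, and none passed an adjusted p of 0.05 in edgeR with all libraries. Of 35 cell cycle genes, 0 were higher and 9 lower at an unadjusted p under 0.05, with 30 of 35 negative and a median of -0.34. Without t2 339, 1 was higher and 10 lower (-0.42), and without t2 360, 0 and 6 (-0.12). The median was -0.16 without t2 347 and -0.20 without t4 336. The 9 were Pcna, Mcm5, Mcm3, Mcm2, E2f1, Cdt1, Tyms, Mcm7 and Ccna2, genes of DNA replication, of its licensing and of nucleotide synthesis and the S-phase cyclin. Pcna (chromosome 2, 132249286 to 132253180), the sliding clamp of DNA polymerase, was at 86.5, 63.3, 73.4, 87.9 and 69.7 CPM at t2 and 34 to 64.7 (median 47.5) at t4. Only t2 339 among the t2 libraries lay inside the t4 range, and the log2 fold change was -0.67 ± 0.16 (adjusted p 0.103), against -0.73 ± 0.17 (0.0804) without t2 339. Mcm5 (chromosome 8, 75109509 to 75128439), a subunit of the replicative helicase, was at 8.28, 8.86, 14.6, 8.17 and 26.1 CPM at t2 and 4.41 to 7.95 (median 5.91) at t4, and Mcm3 (chromosome 1, 20803014 to 20820213), another subunit, at 6.84, 7.63, 11.7, 11.1 and 19.3 at t2 and 2.83 to 6.47 (median 5.19) at t4. Both were apart between the groups, with t2 360 the highest (-1.13 ± 0.28, 0.107 and -1.18 ± 0.29, 0.107). Without t2 339 they gave -1.25 ± 0.29 (0.0797) and -1.29 ± 0.30 (0.0804). DESeq2 called 3 genes of the list as lower and limma-voom 3, of which Pcna and Mcm5 were called by both. The proliferation marker Mki67 was at 8.97, 19.1, 21.1, 6.16 and 24.3 CPM at t2 and 6.08 to 20.2 (median 14.5) at t4, overlapping, with a log2 fold change of -0.19 ± 0.39 (0.863, against -0.11 ± 0.43, 0.935 without t2 339) whose sign turned without t2 360.

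The promoters of Mcm5 and Mcm3 are shown because E2F factors are known to drive replication genes. Each runs from 250 bases before to 50 after the annotated start in RefSeq (GRCm38.p6), 5′ to 3′, with matches to the E2F motifs TTTGGCGC, TTTCCCGC and TTTCGCGC on either strand in capitals.
Mcm5 promoter, chr8:75109259-75109558, plus strand: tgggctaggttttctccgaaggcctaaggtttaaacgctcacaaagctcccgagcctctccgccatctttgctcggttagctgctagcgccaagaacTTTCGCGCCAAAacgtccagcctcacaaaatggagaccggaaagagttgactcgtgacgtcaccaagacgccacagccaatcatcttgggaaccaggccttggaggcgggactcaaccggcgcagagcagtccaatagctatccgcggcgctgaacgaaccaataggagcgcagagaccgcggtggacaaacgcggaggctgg
Mcm3 promoter, chr1:20820263-20820562, minus strand: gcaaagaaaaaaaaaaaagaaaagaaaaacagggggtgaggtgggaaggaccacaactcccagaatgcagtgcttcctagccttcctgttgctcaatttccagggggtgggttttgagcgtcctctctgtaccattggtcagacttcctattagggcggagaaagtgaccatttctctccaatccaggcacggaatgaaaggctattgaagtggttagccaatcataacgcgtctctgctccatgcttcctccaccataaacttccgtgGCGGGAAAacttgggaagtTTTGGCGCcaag
Both held 2 matches, which overlap in Mcm5. Of the 9 genes, 8 had a promoter in the RefSeq table (Ccna2 did not) and 4 held a match, and 1.84% of all 32851 promoters did. A match is a description of letters and shows no binding.

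Core histones were lower in median (-0.26, and -0.40 without t2 339). Of 16, 0 were higher and 1 lower (2 without t2 339, and 2 without t4 335). With all libraries that count was near the share of 8.84% lower over all genes. The 1 was H3f3b, the replication-independent histone H3.3, at 472, 489, 606, 581 and 498 CPM at t2 and 362 to 444 (median 419) at t4, apart in all libraries (-0.37 ± 0.09, 0.112, against -0.40 ± 0.10, 0.0832 without t2 339). H3f3b was called lower by DESeq2 and by limma-voom. Both tools also called Hist1h4k, a histone H4 gene outside the list, given here after its values were seen. Its log2 fold change was -2.22 by DESeq2 and -1.44 by limma-voom. The edgeR adjusted p of Hist1h4k was 0.0844, and 0.179 without t2 339. The variant histones H2afz and H2afy gave -0.30 ± 0.16 (0.409, against -0.33 ± 0.17, 0.409 without t2 339) and -0.15 ± 0.10 (0.517, against -0.12 ± 0.11, 0.665 without t2 339). Summed over the list, t2 libraries lay between 1202 and 1480 CPM and t4 libraries between 944.5 and 1216, overlapping through t2 339 and t4 377.

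Genes of the circadian clock, a feedback loop in which activators switch on their own repressors, differed in both directions. Of 20, 3 were higher and 3 lower at an unadjusted p under 0.05, and 4 and 3 without t2 339. Without t2 334 they were 6 and 2, without t2 358 they were 5 and 3, and without t4 377, 5 and 2. The 6 with all libraries are all given, a choice made with their values seen. Dbp, an output activator of the clock, was at 2.55, 0.55, 4.06, 2.56 and 10.5 CPM at t2 and 10.04 to 33.9 (median 14.7) at t4 (2.16 ± 0.60, 0.133, against 1.87 ± 0.59, 0.187 without t2 339), and it was called higher by DESeq2 and limma-voom. Without t2 360 the value for Dbp was 2.88 (edgeR adjusted p 0.0473). It overlaps Sphk2 in the table, so its reads are uncertain. Per3, a repressor of the loop, was at 30.6, 16.1, 29.8, 25.7 and 48.3 CPM at t2 and 47.1 to 106 (median 60.3) at t4 (1.17 ± 0.28, 0.103, against 1.01 ± 0.29, 0.14 without t2 339). The repressor Nr1d2 was at 26, 38.2, 28.4, 29.3 and 43.9 CPM at t2 and 32.5 to 68.1 (median 53.5) at t4 (0.66 ± 0.26, 0.248, against 0.72 ± 0.28, 0.264 without t2 339). In t2 360, the highest t2 library for all 3, the values lay inside the t4 range, and for Nr1d2 those of t2 339 did too.

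The 3 lower genes were the activators Arntl and Npas2 and the repressor Nfil3. Arntl, which encodes BMAL1, was at 28.6, 56.3, 25.3, 30.8 and 21.8 CPM at t2 and 9.2 to 25.3 (median 16.6) at t4 (-0.95 ± 0.29, 0.149, against -0.66 ± 0.28, 0.301 without t2 339). Npas2, a partner of BMAL1, was at 63.9, 29.4, 61.3, 59.8 and 45.4 at t2 and 23.4 to 43.1 (median 33.6) at t4 (-0.60 ± 0.24, 0.267, against -0.75 ± 0.24, 0.188 without t2 339). Nfil3, which competes with Dbp at D-box sites, was at 71.5, 59.6, 53.6, 79.1 and 30.3 at t2 and 17.6 to 40.1 (median 32.5) at t4 (-0.90 ± 0.28, 0.17, against -0.90 ± 0.31, 0.21 without t2 339). The ranges of Arntl and Nfil3 overlapped with and without t2 339, and those of Npas2 were apart without it. The hour of brushing is not given in the sources used here.

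The promoters of Per3, Arntl (the second of its 2 annotated starts) and Nfil3 are shown since clock factors act through short sites. The searched motifs, on either strand, were the E-box CACGTG, the D-box TTANGTAA bound by Dbp and Nfil3, and TAGGTCA, the core of the site bound by ROR and REV-ERB receptors, with matches in capitals (RefSeq, GRCm38.p6).
Per3 promoter, chr4:151044616-151044915, minus strand: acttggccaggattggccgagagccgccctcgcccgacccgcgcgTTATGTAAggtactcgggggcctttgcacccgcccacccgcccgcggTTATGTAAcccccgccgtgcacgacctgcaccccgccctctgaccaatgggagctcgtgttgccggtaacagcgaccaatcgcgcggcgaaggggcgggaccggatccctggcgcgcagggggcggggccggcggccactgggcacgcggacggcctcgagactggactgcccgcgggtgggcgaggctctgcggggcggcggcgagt
Arntl promoter, chr7:113207261-113207560, plus strand: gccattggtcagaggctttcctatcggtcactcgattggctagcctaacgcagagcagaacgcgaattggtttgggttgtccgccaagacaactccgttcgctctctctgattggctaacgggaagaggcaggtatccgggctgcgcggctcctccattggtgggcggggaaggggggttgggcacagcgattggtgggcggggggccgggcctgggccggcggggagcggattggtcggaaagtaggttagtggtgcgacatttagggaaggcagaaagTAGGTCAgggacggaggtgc
Nfil3 promoter, chr13:52980990-52981289, minus strand: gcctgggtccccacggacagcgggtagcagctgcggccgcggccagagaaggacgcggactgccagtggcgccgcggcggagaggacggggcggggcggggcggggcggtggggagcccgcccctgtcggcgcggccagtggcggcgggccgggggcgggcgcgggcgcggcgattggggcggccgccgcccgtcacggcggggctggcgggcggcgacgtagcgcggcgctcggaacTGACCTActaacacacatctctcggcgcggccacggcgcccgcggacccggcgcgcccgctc
Per3 held 2 D-boxes, and Arntl and Nfil3 held 1 receptor core each, that of Nfil3 on the opposite strand. Of the 6 genes and their 7 promoters, only these 3 held any of the motifs in this window. The E-box was found in 7.15% of all promoters, the D-box in 2.32% and the receptor core in 2.61%.

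Immediate early genes, which respond within minutes to growth factors and handling, were higher in median. Of 30, 7 were higher and 0 lower (median 0.54), and 27 of 30 were positive. Without t2 339 they were 7 and 0 (0.53). Without t4 336, 3 were higher (0.31), and without t2 358, 11 were (0.84). Nr4a3, an orphan nuclear receptor, was at 0.494, 0, 0.0688, 0.445 and 0.575 CPM at t2 and 0.245 to 4.6 (median 2.01) at t4 (2.86 ± 0.82, 0.135, against 2.54 ± 0.79, 0.177 without t2 339), and Egr3, a zinc-finger factor, at 1.14, 0.129, 0.103, 2.82 and 0.531 at t2 and 1.14 to 16.2 (median 1.88) at t4 (2.48 ± 0.78, 0.17, against 2.19 ± 0.80, 0.232 without t2 339). Maff, a small partner of AP-1-like factors, was at 56, 40.7, 50.5, 61.6 and 48.1 at t2 and 58.3 to 139 (median 71.2) at t4 (0.66 ± 0.23, 0.2, against 0.59 ± 0.25, 0.3 without t2 339). For Egr3 the log2 fold change was 1.71 without t4 336 and 3.47 without t2 358. In all 3 genes t4 335 and t4 336 were the highest libraries. Summed over the list, t4 libraries lay between 1895 and 5471 CPM, with t4 336 and t4 335 highest. The t2 libraries lay between 1421 and 3229, with t2 358 and t2 334 highest. All of these highest libraries were read as male. The remaining male library, t4 371, was at 2239 CPM, below the female library t4 340 at 2521. The part of sex in this list was not tested. DESeq2 called 2 of the list as higher and limma-voom 0.

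Cholesterol synthesis genes were higher in median and in sum. The summed level, taken for each of 50 lists, was 1113 to 1326 CPM at t2 and 1354 to 1847 at t4. Those ranges were only narrowly apart, at 1326 in t2 347 and 1354 in t4 377. Of 21 genes, 3 were higher and 0 lower (median 0.25), and 0 were apart between the groups with all libraries. Without t2 339, 2 were higher (0.23), and without t2 358, t4 335 or t4 336, 1 was. Srebf2, the transcription factor of the pathway, was at 304, 234, 269.8, 260.2 and 295 CPM at t2 and 267 to 368 (median 327) at t4, with the ranges overlapping. Its log2 fold change was 0.26 ± 0.12 (adjusted p 0.346), against 0.21 ± 0.13 (0.505) without t2 339, and neither DESeq2 nor limma-voom called a gene of the list.

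Of 53 respiratory chain genes, 5 were higher and 12 lower (median -0.07), and 2 and 12 without t2 339 (-0.13). The number higher was 1 without t2 334 or t4 377 and 2 without t2 347, t4 336 or t4 348, and the median was -0.12 without t4 336 and -0.02 without t4 335. Atp5a1, the alpha subunit of the mitochondrial ATP synthase, was at 473, 432, 481, 483 and 468 CPM at t2 and 308 to 408 (median 377) at t4. The groups were apart, the log2 fold change was -0.35 ± 0.10 (0.135, against -0.38 ± 0.11, 0.136 without t2 339), and DESeq2 and limma-voom both called it. Ndufc2, a subunit of complex I, was at 106, 64.9, 98.1, 117 and 89.6 at t2 and 40.1 to 71.8 (median 50.9) at t4 (-0.82 ± 0.28, 0.195, against -0.93 ± 0.30, 0.185 without t2 339), and Atp5g1, of the membrane ring of the synthase, at 44.8, 46.2, 31.2, 55.7 and 40.7 at t2 and 28.3 to 34.5 (median 32.3) at t4 (-0.45 ± 0.14, 0.155, against -0.43 ± 0.15, 0.207 without t2 339). Of 24 unfolded protein response genes, 1 was higher and 4 lower (median -0.20), and 0 and 6 without t2 339 (-0.17). The number lower was 1 without t2 358 (-0.13), 2 without t4 335 or t4 340, and 8 without t2 360 or t4 371. None was higher without t2 347, t2 360, t4 335 or t4 336. The chaperones Sdf2l1 and Hyou1 were at 80.7, 58.5, 75.9, 78.8 and 78.2 and 293, 254, 229, 376 and 224 CPM at t2. At t4 they were at 35.5 to 79.6 (median 50.5) and 176 to 277 (median 183), with overlap. The disulphide isomerase Pdia6, which overlaps Atp6v1c2, gave -0.34 ± 0.14 (0.281, against -0.37 ± 0.15, 0.293 without t2 339).

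For the enzymes that meet the carcinogen, 33 phase I genes gave 3 higher and 7 lower (median -0.08), and 3 and 8 without t2 339 (-0.14). The number lower was 3 without t2 334 or t2 358 and 4 without t4 335, and 1 was higher without t2 347 or t4 377. The median ran from -0.18 without t4 336 to -0.03 without t2 358. Fmo2, a flavin monooxygenase of lung, was at 281, 250.4, 213, 229 and 234 CPM at t2 and 129 to 209 (median 173) at t4, apart in all libraries (-0.51 ± 0.15, 0.134, against -0.50 ± 0.16, 0.179 without t2 339), and the carboxylesterase Ces1d was at 1068, 875, 934, 1231 and 943 at t2 and 616 to 896 (median 795) at t4 (-0.40 ± 0.15, 0.232, against -0.44 ± 0.16, 0.217 without t2 339). Ces2b, another carboxylesterase, gave 0.89 ± 0.27 (0.159, against 0.73 ± 0.27, 0.235 without t2 339). Of 16 genes for repair of alkylated DNA, 1 was higher and 4 lower (median -0.10), and 1 and 5 without t2 339 (-0.10). None was higher without t4 336 or t4 348, and the median was -0.05 without t2 347. Mgmt, which removes alkyl groups from guanine, was at 8.63, 8.38, 8.56, 8.91 and 7.96 at t2 and 7.18 to 11.3 (median 9.38) at t4, with a log2 fold change of 0.11 ± 0.22, and 0.11 ± 0.23 without t2 339. Lig3, a DNA ligase, was at 47.2, 59.6, 42.1, 53.2 and 46.6 at t2 and 35.8 to 41.5 (median 39.9) at t4 (-0.33 ± 0.10, 0.166, against -0.26 ± 0.10, 0.271 without t2 339), and Ung, the uracil glycosylase, at 2.93, 3.59, 2.17, 2.9 and 4.91 at t2 and 1.18 to 2.28 (median 1.72) at t4 (-0.99 ± 0.34, 0.198, against -0.96 ± 0.34, 0.219 without t2 339). Lig3 was apart between the groups and overlaps Rffl. Apex1, the endonuclease of base excision repair, was at 11.8, 17.8, 9.42, 25.3 and 9.96 at t2 and 5.33 to 11.5 (median 7.57) at t4 (-0.87 ± 0.26, 0.152, against -0.79 ± 0.28, 0.211 without t2 339) and overlaps Tmem55b.

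Of 28 p53 targets, 2 were higher and 4 lower (median -0.05), and 4 and 3 without t2 339 (-0.07). Without t4 336 they were 1 and 6, and 1 was higher without t4 335. The sign of the median turned without t2 358 (0.04). Cdkn1a, the p53-induced inhibitor of the cell cycle, was at 140.2, 133, 101, 151 and 139 CPM at t2 and 78.1 to 199 (median 115) at t4 (-0.15 ± 0.23, 0.801, against -0.15 ± 0.25, 0.836 without t2 339), with t4 336 the highest of all. Sesn1, a stress-induced regulator of mTOR, was at 24.6, 41.9, 28.1, 22.2 and 22.1 at t2 and 11.4 to 21.5 (median 15) at t4, apart in all libraries (-0.79 ± 0.21, 0.113, against -0.60 ± 0.20, 0.202 without t2 339). Pmaip1, a pro-apoptotic protein, was at 7.07, 1.39, 5.64, 5.6 and 3.32 at t2 and 3.18 to 22 (median 10.4) at t4, overlapping (1.29 ± 0.44, 0.195, against 1.05 ± 0.44, 0.297 without t2 339). Gtse1, a cell cycle protein that binds p53, gave -0.74 ± 0.24 (0.183, against -0.61 ± 0.24, 0.278 without t2 339). Of 17 Wnt targets, 2 were higher and 2 lower, and the sign of the median turned without t2 339 (0.03 and -0.10). None was higher without t2 339, t2 358, t4 340 or t4 377, and 1 was without t4 335. Sfrp1, a secreted Wnt antagonist, was at 10.6, 11.5, 8.87, 6.98 and 11.1 at t2 and 4.12 to 8.37 (median 6.07) at t4, and Dkk3, of the Dickkopf family, at 18.7, 15.5, 24, 14 and 22.6 at t2 and 15.3 to 41 (median 34.1) at t4.

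Of 8 nuclear-retained RNAs, 2 were higher and 0 lower (median 0.37, and 0.38 with the same counts without t2 339), Malat1 and Kcnq1ot1, both called by DESeq2 and by limma-voom. Kcnq1ot1, the imprinted antisense RNA within Kcnq1, was at 14.1, 15.6, 17.4, 20.9 and 14 CPM at t2 and 24.9 to 43.3 (median 30.2) at t4, apart in all libraries (0.96 ± 0.27, 0.134, against 0.94 ± 0.30, 0.187 without t2 339), and reads of Kcnq1 cannot be told from it where strand was not used. Neat1, the RNA of paraspeckles, was at 2486, 3307, 2373, 2251 and 2588 CPM at t2 and 1979 to 4155 (median 3011) at t4 (0.23 ± 0.23, 0.686, against 0.33 ± 0.24, 0.584 without t2 339). The small nucleolar RNA host Snhg1 was highest in t2 339 (8.47 CPM), against at most 3.87 in the other 10.

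Markers of cells other than the lining epithelium are given as whole lists. Skeletal muscle genes had the lowest median of the lists described: of 16, 0 were higher and 12 lower (median -2.77), and 4 were apart between the groups, against 1.00% of all genes lower and apart. Without t2 339, 14 were lower (-2.88). Without t2 360, 1 was higher and 2 lower (-1.55). Their summed level was 258.4, 483.4, 201.4, 157.0 and 2200 CPM at t2 and 27.74 to 162.4 at t4. The muscle signal was strongest in t2 360, and t2 358 was the t2 library inside the t4 range. The oxygen carrier Mb was at 2.66, 34.5, 10.7, 9.02 and 57.1 CPM at t2 and 0.552 to 4.41 (median 2.71) at t4 (-3.20 ± 0.79, 0.107, against -3.00 ± 0.82, 0.131 without t2 339), Tnni2, troponin I of fast muscle, at 9.16, 54.1, 9.35, 8.17 and 98.8 at t2 and 1.84 to 8.16 (median 5.99) at t4 (-2.76 ± 0.75, 0.124, against -2.57 ± 0.79, 0.179 without t2 339), and Atp2a1, the calcium pump of muscle, at 28, 59.9, 23, 20.1 and 284 at t2 and 2.24 to 17.8 (median 12.2) at t4. Without t2 360 the log2 fold changes of Mb, Tnni2 and Atp2a1 were -2.52, -1.94 and -1.66. The part of the muscle signal in the other results was not tested.

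Erythroid genes were all positive, 12 of 12, with 2 higher and a median of 2.92, and t4 371 held most of the signal. Without t4 371 none was higher and the median was 0.64. Without t2 339, 1 was higher (3.24), none was without any of the other t2 libraries, 5 were without t4 340 or t4 377, and 6 without t4 348. Their sum was 6871 to 17420 CPM at t2, 372900 in t4 371 and 3919 to 28880 in the other t4 libraries. The red cell anion exchanger Slc4a1 was at 2.28, 4.08, 1.89, 1.3 and 2.12 CPM at t2 and 1.17 to 120.1 (median 5.19) at t4, and Bpgm, an enzyme of red cell glycolysis, at 70.9, 90.2, 67.1, 65.1 and 85.4 at t2 and 66.9 to 866 (median 97.4) at t4. Without t4 371 their log2 fold changes were 1.12 and 0.32. Of 15 T and NK cell genes, 4 were higher and 0 lower (median 1.45), at low levels. Without t2 339, in which Cd5, Cd3e and Cd8a were at 0, 1 was higher (1.12). The number was also 1 without t2 358, t2 360, t4 340 or t4 377, 0 without t4 335, and 6 without t2 334, t2 347 or t4 336. Their sum was 10.71 to 21.94 CPM at t2 and 14.79 to 48.90 at t4. Cd5, a T-cell receptor regulator, was at 0.038, 0, 0.0344, 0.297 and 0.133 CPM at t2 and 0.316 to 1.13 (median 0.807) at t4, apart in all libraries (2.88 ± 0.97, 0.192, against 2.55 ± 0.98, 0.256 without t2 339), and Cd3e, a chain of the T-cell receptor complex, at 0.798, 0, 0.757, 0.52 and 0.531 at t2 and 0.587 to 3.34 (median 1.33) at t4, overlapping. The T-cell co-receptor Cd8a was at 1.22, 0, 1.31, 0.594 and 0.0885 at t2 and 0.949 to 8 (median 2.09) at t4, highest in t4 377.

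Of 18 macrophage genes, 1 was higher (Aif1) and 1 lower (Cd14), with a median of 0.17 (0.18 with the same counts without t2 339). None was higher without t2 358, t4 335 or t4 340. Cd14, the lipopolysaccharide co-receptor, was at 579.6, 419, 411, 992 and 563 CPM at t2 and 213 to 457 (median 296) at t4. Only t4 371 reached the t2 range, and the log2 fold change was -0.92 ± 0.21 (0.0872) with all libraries and -1.02 ± 0.22 (0.0553) without t2 339. DESeq2 and limma-voom both called Cd14 as lower. The level of Cd14 was far above those of Aif1 and Csf1r, and its sign was opposite to theirs. Which cells held the Cd14 RNA was not tested. The macrophage receptor Csf1r was at 28.2, 27.3, 39.4, 29.2 and 34.5 at t2 and 29.9 to 51.7 (median 39.5) at t4 (0.35 ± 0.21, 0.474, against 0.30 ± 0.23, 0.598 without t2 339).

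**Figure D4:**
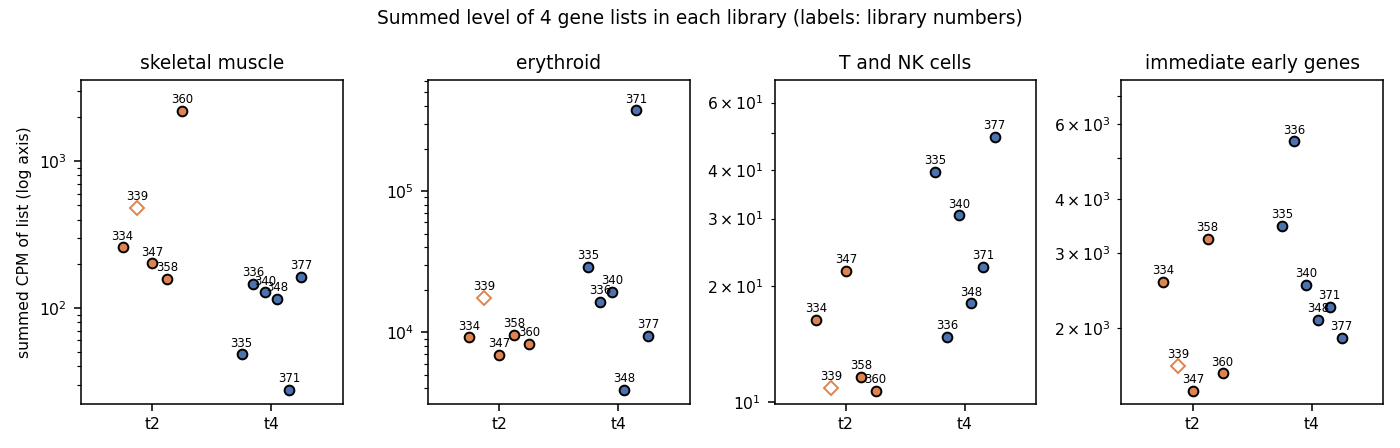
Summed CPM (log axis) of 4 gene lists in each t2 and t4 library, with library numbers beside the points and t2 339 as an open diamond. The muscle sum peaks at 2200 in t2 360, the erythroid sum at 372900 in t4 371, the T and NK sum at 48.90 in t4 377 and the immediate early sum at 5471 in t4 336.

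Levels of a few genes are given at all 5 times for context. Mean CPM of Trp63 was 39.7 ± 4.91 (SD) before exposure (n = 6), 48.1 ± 9.28 at its end (t0, n = 6), 40.9 ± 12.1 at t2 (n = 5), 19.99 ± 6.06 at t4 (n = 6) and 25.7 ± 5.43 at month 6 (t6, n = 5). The t4 and t6 means were below the 3 earlier ones. For Pcna the means were 51.3 ± 9.08, 86.2 ± 19.8, 76.2 ± 10.7, 47.7 ± 10.4 and 49 ± 8.58 in the same order, with t0 and t2 high and t4 and t6 near the level before exposure. For Mcm5 they were 10.4 ± 2.31, 21.5 ± 8.11, 13.2 ± 7.7, 6.02 ± 1.43 and 5.56 ± 0.809, with the t4 and t6 means below the one before exposure.

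Eif4ebp2 stood at 65.7 ± 9.18, 117 ± 25.7, 108 ± 10.8, 60.6 ± 9.38 and 57 ± 14 CPM, again with t0 and t2 above the other groups. Per3 ran the other way, at 59 ± 18.9, 34.9 ± 13.9, 30.1 ± 11.7, 67.8 ± 21.8 and 89.9 ± 21.8, and so did Dbp, at 19 ± 5.27, 6.2 ± 6.76, 4.05 ± 3.83, 17.9 ± 9.05 and 44.5 ± 20.5. These means are descriptions, and no test was run between other times.

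**Figure D5:**
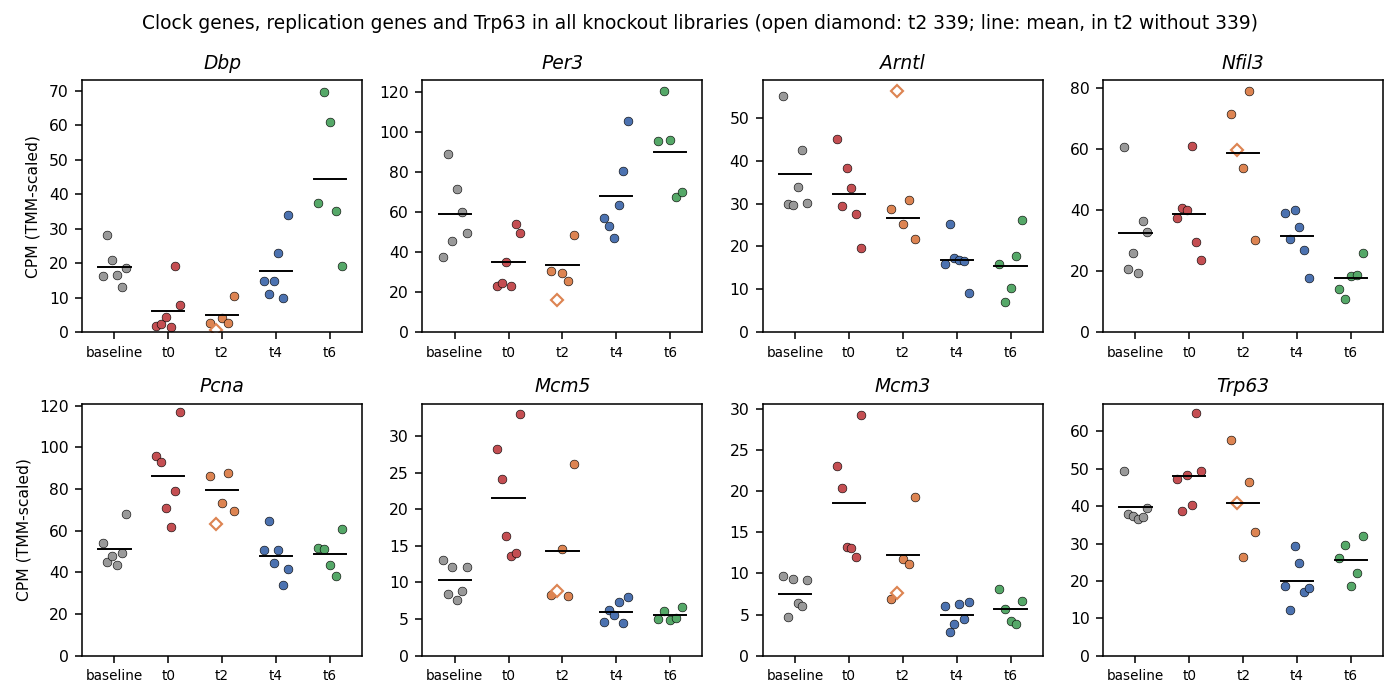
CPM (y axis, from 0) of 4 clock genes, 3 replication genes and Trp63 in all 28 knockout libraries by group (x axis), with group means as lines, taken in t2 without t2 339 (open diamond). Dbp and Per3 are lowest at t0 and t2, Pcna, Mcm5 and Mcm3 are highest at t0, and Trp63 is lowest at t4.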

How the data were processed

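Airway brushings of Gprc5a-/- mice were profiled by RNA sequencing, and 11 of 28 knockout libraries, 5 at t2 and 6 at t4, enter the contrast. The 6 wild-type libraries were not used here. The submitters' processing notes name STAR 2.4.1d, Bowtie2 2.1.0, Partek and the build mm10, with no roles, and whether counting used strand is not given in the sources used here. The values deposited by the authors are estimated counts per gene: the table is named for RPKM, but 76.3% of its values above 0 are whole within 0.01 and libraries sum to different totals. They were rounded to whole numbers. Of the table's symbols, 27 had been turned into dates and 4 rows repeat a symbol.

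The main test was edgeR 4.0.16 (quasi-likelihood, robust, TMM) in R 4.3.3, with a mean for each of the 5 groups over all 28 knockout libraries. Genes reaching 1 CPM in 5 or more libraries were tested, with Benjamini-Hochberg adjustment over all genes tested, two-sided, at 0.05. The fit was repeated without t2 339. CPM values are TMM-scaled, except in the filter, which used library totals. Libraries come from separate mice, so p-values measure the spread between mice. DESeq2 1.42.0, limma 3.58.1 on log2(CPM + 1), and limma-voom with sample quality weights were alternatives, as were scaling by totals, RLE scaling, haemoglobin genes left out, other filters, only the 11 libraries, sex read from the counts as a covariate and each library left out. An adjusted p under 0.10, and list counts with each library left out, were added after the data were seen.

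No gene was called in both fits, so the text names the 6 genes with the smallest p in each direction, up to 3 members with the smallest p of each list described and genes listed by name whatever their values, and the other genes were chosen after their values were seen. The comparison, members and lists were chosen with earlier results of these data known. Of 971 list genes, 14 were not in the table. Motifs were searched in RefSeq promoter sequences (GRCm38.p6). A few genes, 1 of the 16 calls among them, are not reported here.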

Additional observations from a re-analysis of the deposited data

Results flagged for a closer look

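For 190 combinations of a named gene and a group, the highest and lowest library were set against Dixon's 95% limit, and 25 stood apart. Chance gives about 1 in 20 for normally distributed values, while these were CPM without logs. Some of the genes were named because they were called only without t2 339, so its flags are in part built into that choice. The library t2 339 accounted for 8, t4 336 for 6, t4 371 for 4, t2 358 for 2, and t2 334, t2 360, t4 340, t4 348 and t4 377 for 1 each.

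In t2 339, Brd9 stood at 59.3 CPM, with the remaining t2 libraries at 21.3 to 24.5, Malat1 at 2000 (819 to 1110), Snhg1 at 8.47 (1.33 to 2.64) and Arntl at 56.3 (21.8 to 30.8). There Sprr3 was at 7.31 (0.138 to 2.08) and Gprc5a at 7.7 (0.487 to 1.24). The low values of t2 339 were those of Atp5a1, at 432 (468 to 483), and Sdf2l1, at 58.5 (75.9 to 80.7).

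In t4 336, Krt5 stood at 570 CPM, with the remaining t4 libraries at 162 to 278, Tubb5 at 251 (140 to 164) and Maff at 139 (58.3 to 87.4). Tbrg3 was at 2.49 (0.768 to 1.34), Gprc5a at 3.11 (0.287 to 1.23), and Defb1 was low at 5.46 (8.09 to 9.24). In t4 371, Slc4a1 was at 120 (1.17 to 10.2), Bpgm at 866 (66.9 to 130) and Arglu1 at 106 (55.5 to 74.4), and Ercc3 was low at 26.5 (32.2 to 35.2).

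Of the t2 libraries, Chil4 was high in t2 334, at 1170 CPM (14.4 to 168), Pdia6 in t2 358, at 402 (318 to 339), Cd14 in t2 358, at 992 (411 to 580), and Atp2a1 in t2 360, at 284 (20.1 to 59.9). Of the t4 libraries, Gtse1 was high in t4 340, at 8.09 (2.7 to 4.29), Cd8a was high in t4 377, at 8.00 (0.949 to 3.25), and Itgb7 was low in t4 348, at 30.9 (42.9 to 48.6).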

How the results depend on the processing

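With all libraries the count of called genes stayed at 0 under scaling by totals, RLE scaling, haemoglobin genes left out, no filter, a 5 CPM filter, limma on log2(CPM + 1), only the 11 libraries and sex as a covariate. It was 155 by DESeq2, 245 by limma-voom and 32 at an adjusted p under 0.10, a threshold chosen after seeing the data, and 0 to 31 with single libraries left out. Without t2 339 it was 16, and 11 by totals (1 higher, 10 lower, against 6 and 10), 12 by RLE, 11 with haemoglobin genes left out, 20 at 5 CPM and 17 with sex. It was 157 by DESeq2, 223 by limma-voom, 7 by limma on log2(CPM + 1), 6 from the t2 and t4 libraries only, 91 at 0.10, 0 with no filter (2452 at an unadjusted p under 0.05) and 0 to 30 with a further library left out. With t2 339 and t4 371 both left out it was 0. The cause of these moves was not tested.

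With all libraries edgeR called 0 genes, so under alternatives a named gene could only stay uncalled or become called. Many were chosen by their p in this contrast, and the alternatives share its libraries, so the counts do not measure stability. Of the values for named genes, 2040 kept direction and stayed uncalled, 110 kept direction and were called, and 16 changed sign. With single libraries left out, these log2 fold changes ran from -1.16 to 0.014 for Snhg1, -1.53 to 0.237 for Gprc5a, -0.0829 to 0.244 for Scgb1a1, -0.176 to 0.313 for Scgb3a1, -0.313 to 0.0789 for Muc5b and -0.392 to 0.0149 for Mki67. Scgb1a1 and Scgb3a1 became -0.00304 and -0.00992 by totals. By limma-voom Scgb1a1 became -0.0968 and Mki67 0.0584. Without t2 339 and t4 371, Snhg1, Gprc5a and Scgb1a1 were at 0.0392, 0.30 and -0.151. Of list medians, 262 moved by less than the SD between libraries of a group in the list's median log2(CPM + 1). A further 2 moved more and 9 changed sign. That limit is wide for lists that differ much between libraries, so the 262 do not show stability. With single libraries left out, the median ran from 0.642 to 3.24 for erythroid and from -3.02 to -1.55 for skeletal muscle genes. With single libraries left out, the median ran from -0.0958 to 0.108 for Wnt targets (-0.0178 by totals), -0.0937 to 0.0417 for p53 targets and -0.087 to 0.354 for macrophages.

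No paired analysis was possible because the groups share no library number. Total counts of the groups overlapped only through t4 335, and all other t4 libraries were below every t2 library. The part of depth in the results was not tested. Genes near 1 CPM, such as Tbrg3, rest on few counts.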
